A study of Mus musculus with 6 samples.

Results

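Glycolysis and glycogen metabolism were described by 43 genes, taken as a fixed list of enzymes, isoforms and regulators of both pathways and found on the arrays through the RefSeq accession of their probes. All 43 were measured among 13705 genes in all, and all 43 were well above background in both channels of all 3 arrays. RNA came from whole tibialis anterior (TA) muscles of 3 *mdx* and 3 N1ICD-*mdx* mice on a mixed 129 and C57BL/6 background, 9 months of age and kept on ordinary chow. Both groups carry the *mdx* mutation and lack dystrophin, the protein that ties the fiber cytoskeleton to the membrane. N1ICD-*mdx* mice carry in addition MCK-Cre and a *Rosa26* allele that Cre opens, so that the intracellular domain of Notch1 (N1ICD), the active form of this receptor, is made in fused muscle fibers and not in the other cells of the muscle. Whether the *mdx* mice carried the Cre or the silent allele, and their sex, is not given in the sources used here. The Cy3 label went to the *mdx* sample and the Cy5 label to the N1ICD-*mdx* sample of every array, with no dye swap, so genotype and dye cannot be told apart in any value below. In whole muscle RNA, fewer cells of a type and less RNA per cell cannot be told apart either.

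Glycolysis splits glucose into pyruvate in a chain of cytosolic enzymes and yields ATP without oxygen, and lactate dehydrogenase then turns pyruvate into lactate. Glycogen is the branched glucose store of the fiber, built by glycogenin, glycogen synthase and the branching enzyme and opened by glycogen phosphorylase under the control of phosphorylase kinase. Fast fibers, which make up nearly all of the mouse TA, rely on both pathways for short bursts of force, and many of the enzymes exist as a muscle isoform beside isoforms used by liver, brain or white blood cells.

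Levels are given as normalized log2 intensities of 1 probe per gene, its brightest, and a ratio is the log2 ratio of N1ICD-*mdx* over *mdx* within 1 array, so that a ratio of 1 is a doubling. The comparison asks whether these genes differ between *mdx* muscles with and without N1ICD. The ratios leaned upward, with 30 of 43 genes (69.8%) above 0 against 49.1% of all genes, but the lean moved with the scaling of the arrays. It was 37 of 43 with processed signals, where the median of all genes stood at 0.23, and 22 of 43 with median centring in place of loess, where that median stood at -0.18. The median ratio of the 43 genes was 0.19, beside 0.00 for all genes, and was 0.11, 0.55 and 0.03 on arrays 1, 2 and 3. It was 0.10 without replicate 2.

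At the thresholds of the study's methods, 1.5-fold and an unadjusted p under 0.05, 3 of the 43 genes (6.98%) were called, all higher in N1ICD-*mdx* muscle, while 0.956% of all genes were called in either direction, 0.474% higher and 0.482% lower. They were *Aldoa*, *Gapdh* and *Gbe1*. With processed signals 2 of the 43, *Gbe1* and *Stbd1*, were called, while 7.04% of all genes were. A further 5 genes, *Pfkm*, *Ldha*, *Gpi1*, *Pgk1* and *Tpi1*, had an unadjusted p under 0.05 with smaller ratios, all higher, which makes 8 of 43 (18.6%) against 4.05% of all genes. That count of 8 fell to 3 with processed signals, where 11.7% of all genes were higher at that threshold. It was 1 with median centring (0.934% of all genes), 2 without replicate 1 (1.56%) and 4 with an offset of 10 (3.77%). It was 5 with the mean over probes (3.64%) or with no background correction (3.87%). It was 7 with trend and robust variances (2.5%), with the methods' t-test (4.14%) or without replicate 3 (1.15%). With array weights it was 8 (11.9%), and with no replicate block 10 (3.79%). By its brightest probe, none of the 43 was lower at that threshold, against 2.44% of all genes. In the main limma fit no gene of the 43 and no gene of the 13705 had an adjusted p under 0.05. In that fit 890 genes in all (6.49%) had an unadjusted p under 0.05. The adjusted p was 0.704 in it for each of the 8 genes above. Without replicate 2, 3 genes of all had an adjusted p under 0.05, and with array weights 1 did, none of them among the 43. The levels of the 3 N1ICD-*mdx* muscles lay above those of all 3 *mdx* muscles for 10 of the 43 genes, against 7.68% of all genes, and below them for 1 gene, *Hk3*, against 6.25%.

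Brightness moved with these counts. Among all 269 genes with a mean log2 intensity of 14 and above, the median ratio was 0.24, with 0.24, 0.27 and 0.23 on the 3 arrays, 36.4% were higher at an unadjusted p under 0.05 and 40.5% had N1ICD-*mdx* levels above all *mdx* levels. In that class 8.92% of genes were called higher and 81.4% had a ratio above 0. Of the 43 genes, 13 lay in it, of which 2 were called and all 13 had a ratio above 0, with a median of 0.41. That median stood at 0.28 on array 1, 0.79 on array 2 and 0.14 on array 3, and at 0.24 with replicate 2 left out, beside 0.24 for all bright genes under the same omission. Of these 13 genes 7 had an unadjusted p under 0.05 (53.8%), and they are 7 of the 8 named above, leaving only *Gbe1* outside. Among the 10 dimmest genes, below a log2 intensity of 8, the median was -0.06. With processed signals the bright class did not stand apart, at a median of 0.23 beside 0.21 to 0.23 in the dimmer classes. The 13 bright genes of the 43 then had a median of 0.39. With median centring the bright class stood at 0.18 beside -0.25 to -0.12 in the dimmer classes. With no background correction it stood at 0.16 beside -0.01 to 0.00. The 13 bright genes of the 43 had medians of 0.33 and 0.34 in these last settings. The part of brightness in the ratios was not tested.

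**Figure D1:**
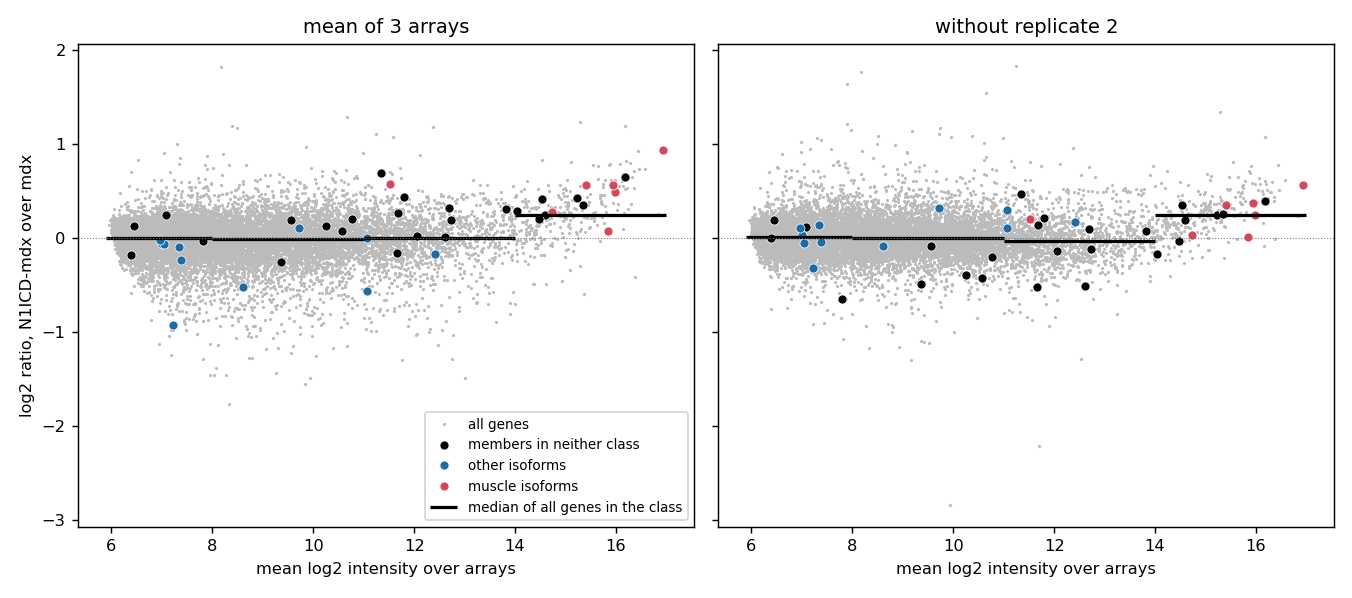
Each point is a gene, with its mean log2 intensity over the 3 arrays on the x axis and its log2 ratio of N1ICD-mdx over mdx on the y axis, as the mean of 3 arrays (left) and without replicate 2 (right). Black lines are the medians of all genes in 4 brightness classes, and the one at 14 and above stands at 0.24 in both panels. The muscle isoforms (red) lie mostly in that class, and the other isoforms (blue) lie below it, at 6.97 to 12.41.

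Replicate 2 carried most of the size. The SD of the ratios over all genes was 0.536 on array 2 and 0.244 and 0.238 on arrays 1 and 3. The *mdx* muscle of replicate 2 stood apart, with correlations of 0.967 to 0.982 with the other muscles, which correlated at 0.987 to 0.994 among themselves. The largest of the 3 ratios in size was that of array 2 for 38 of the 43 genes (88.4%), against 59.2% of all genes. In 26 of the 43 genes the lowest of the 6 levels was that of *mdx* replicate 2 (60.5%), against 31% of all genes, and in 8 it was the highest (18.6%), against 30% of all genes.

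Markers of some other cells moved with the same muscle. Of 16 macrophage markers 15 passed the background filter, and *Cd163* did not. Their mean log2 level was 11.19, 12.15 and 10.60 in *mdx* muscles 1, 2 and 3 and 11.09, 10.23 and 10.48 in N1ICD-*mdx* muscles, so that *mdx* replicate 2 was the highest. Their median ratio was -0.78 over 3 arrays, with -0.15, -1.94 and -0.11 on each, and -0.12 without replicate 2. All 9 fast fiber markers were measured, with a median ratio of 0.35, with medians of 0.29, 0.75 and 0.11 on arrays 1, 2 and 3 and of 0.23 once replicate 2 was left out, and their mean level was lowest, at 15.002, in *mdx* replicate 2. Their range over the other *mdx* muscles reached 15.27, and over the N1ICD-*mdx* muscles it was 15.49 to 15.70. Adipocyte markers, with mean levels of 9.02, 8.98 and 8.96 in *mdx* muscles 1, 2 and 3, and endothelial markers, at 9.18, 9.37 and 9.47, did not set *mdx* replicate 2 apart from the other *mdx* muscles. The part of these cells and fibers in the ratios was not tested. As a check of the labels, the Notch targets *Heyl*, *Nrarp*, *Hey1* and *Hes1* had ratios of 0.44 (SE 0.12), 0.28 (SE 0.09), 0.21 (SE 0.08) and 0.11 (SE 0.09). All were above 0 on the 3 arrays, as were 17.7% of all genes. *Hey2* and *Hes5*, which the study also names as upregulated, are not reported here. The probe of *Notch1* itself gave -0.12 (SE 0.08). Whether that probe lies within the transgene was not tested.

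**Figure D2:**
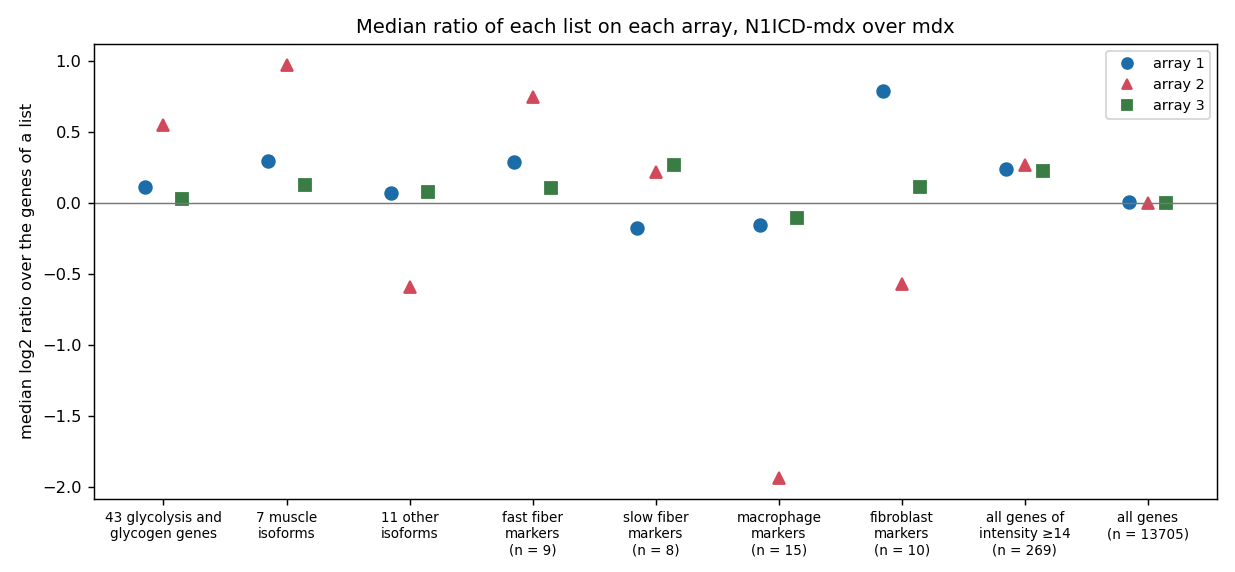
Points are the median log2 ratio of N1ICD-mdx over mdx on each of the 3 arrays (y axis) for each gene list (x axis), with n the number of genes measured. The median of the 43 glycolysis and glycogen genes is largest on array 2, at 0.55, the array on which the macrophage markers stand at -1.94, while the 269 bright genes stay between 0.23 and 0.27 on every array.

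**Figure D3:**
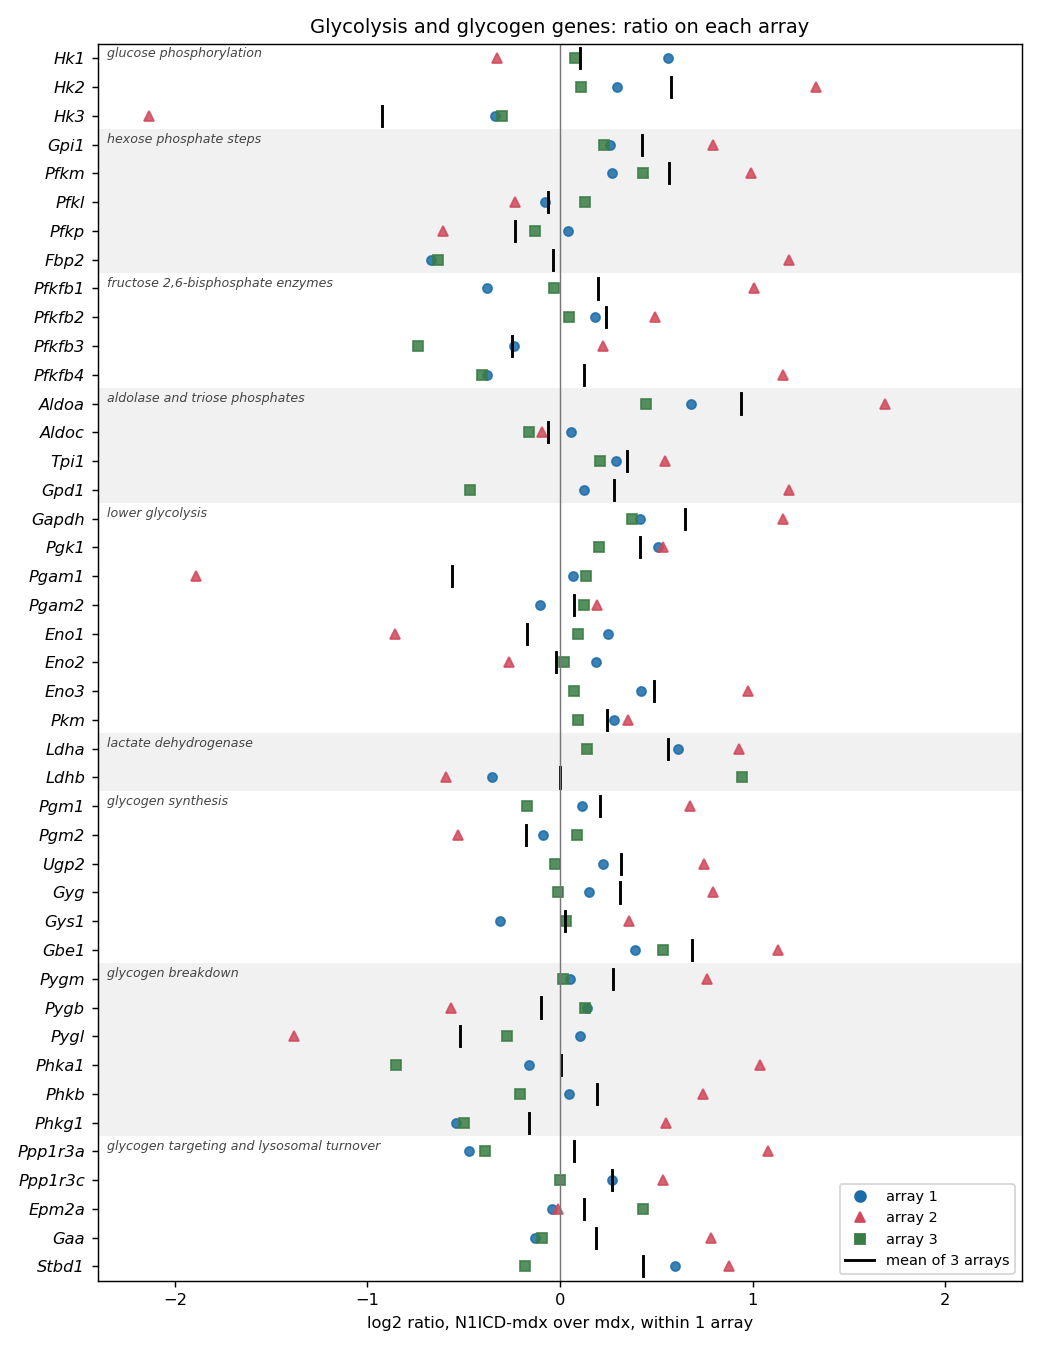
Each row is 1 of the 43 genes, grouped by its step in the pathway, and the x axis is the log2 ratio of N1ICD-mdx over mdx on array 1 (circle), 2 (triangle) and 3 (square), with a black bar at the mean. The triangles of array 2 lie farthest from 0 for 38 of the genes, and 13 genes have all 3 points to the right of 0.

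Hexokinases trap glucose in the cell as glucose 6-phosphate. *Hk2*, the insulin-regulated isoform of muscle, stood at 11.40, 10.87 and 11.44 in *mdx* muscles 1, 2 and 3 and at 11.69, 12.20 and 11.55 in N1ICD-*mdx* muscles. The groups did not overlap, and *mdx* replicate 2 was the lowest and its partner on the array the highest. The ratio was 0.58 (SE 0.27), or 1.49-fold, with an unadjusted p of 0.0963. *Hk1*, the isoform of most tissues, was at 9.61, 9.76 and 9.63 in *mdx* and at 10.17, 9.43 and 9.71 in N1ICD-*mdx* muscles, and the groups overlapped, with a ratio of 0.10 (SE 0.19). *Hk3*, an isoform mostly of white blood cells, was at 7.25, 8.78 and 7.06 and at 6.92, 6.64 and 6.75. All 3 N1ICD-*mdx* levels lay below the *mdx* levels, and *mdx* replicate 2 was far above the other 5 muscles. Its ratio of -0.92 (SE 0.42) was the most negative of the 43 genes, at -0.34, -2.13 and -0.30 on the 3 arrays, with an unadjusted p of 0.089, and it stood at -0.32 without replicate 2.

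*Gpi1* turns glucose 6-phosphate into fructose 6-phosphate. Its level was 15.02, 14.82 and 15.19 in *mdx* muscles and 15.28, 15.61 and 15.41 in N1ICD-*mdx* muscles, with no overlap and with ratios of 0.26, 0.79 and 0.23. The mean ratio was 0.43 (SE 0.15), with an unadjusted p of 0.043. Phosphofructokinase commits the sugar to glycolysis, and *Pfkm* is its muscle subunit. *Pfkm* was at 15.24, 14.82 and 15.28 in *mdx* and at 15.51, 15.81 and 15.72 in N1ICD-*mdx* muscles, again without overlap. The ratios of 0.27, 0.99 and 0.43 gave a mean of 0.56 (SE 0.17, 95% interval 0.10 to 1.02), or 1.48-fold, just under the fold threshold, with an unadjusted p of 0.0266. The liver subunit *Pfkl* was at 6.998, 7.08 and 7.05 and 6.92, 6.84 and 7.18 in the 2 groups and the platelet subunit *Pfkp* at 7.34, 7.83 and 7.33 and 7.38, 7.22 and 7.20. Both overlapped between the groups, with ratios of -0.06 (SE 0.11) and -0.23 (SE 0.16).

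*Fbp2*, the muscle fructose bisphosphatase that runs the phosphofructokinase step backward, had ratios of -0.67, 1.19 and -0.63 on arrays 1, 2 and 3. It was lower in N1ICD-*mdx* muscle on arrays 1 and 3 and higher on array 2, where *mdx* replicate 2 had the lowest level of the 6 muscles. The *Pfkfb* enzymes make and remove fructose 2,6-bisphosphate, the activator of phosphofructokinase. *Pfkfb4* followed the pattern of *Fbp2*, at -0.38, 1.16 and -0.40, and *Pfkfb1* and *Pfkfb3* did so in sign, at -0.38, 1.005 and -0.03 and -0.24, 0.22 and -0.74. *Pfkfb2* was above 0 on all 3 arrays, with a mean of 0.24 (SE 0.12), and none of the 4 had an unadjusted p under 0.05. In all, 8 of the 43 genes were negative on arrays 1 and 3 and positive on array 2 (18.6%), against 14.2% of all genes. These genes were named after their values were seen.

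*Aldoa*, the aldolase of muscle, cuts fructose 1,6-bisphosphate into the triose phosphates and had the largest ratio of the 43 genes. It was also the brightest of all 13705 genes, at a mean log2 intensity of 16.93. Its level was 16.64, 15.95 and 16.75 in *mdx* muscles 1, 2 and 3 and 17.32, 17.64 and 17.20 in N1ICD-*mdx* muscles. Every N1ICD-*mdx* muscle was above every *mdx* muscle, and *mdx* replicate 2 was the lowest by a wide gap. With ratios of 0.68, 1.69 and 0.45, the mean was 0.94 (SE 0.27, 95% interval 0.20 to 1.68), or 1.92-fold, with an unadjusted p of 0.0236 and rank 12 among the 13705 genes. Without replicate 2 the mean was 0.56, below the fold threshold. *Aldoc*, the brain aldolase, stayed within a narrow range, at 7.02, 7.12 and 7.11 and 7.08, 7.02 and 6.95, and its ratio was -0.07 (SE 0.09).

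Both windows below are the 250 bases before a transcript start of *Aldoa*, out of 3 starts, of which the second, not shown, has a window that overlaps the third, on the minus strand of chromosome 7 (GRCm38.p6, from RefSeq), shown because this gene had the largest ratio. They lie at chr7:126800448-126800697 for the first and at chr7:126799179-126799428 for the third. In this and the later windows capitals mark TGGGAA or its reverse complement, the core bound by RBPJ, the DNA partner of N1ICD, and ACGTG or its reverse complement, the core bound by hypoxia factors. The first holds neither motif and the third holds 1 match of the hypoxia core.
Aldoa start 1: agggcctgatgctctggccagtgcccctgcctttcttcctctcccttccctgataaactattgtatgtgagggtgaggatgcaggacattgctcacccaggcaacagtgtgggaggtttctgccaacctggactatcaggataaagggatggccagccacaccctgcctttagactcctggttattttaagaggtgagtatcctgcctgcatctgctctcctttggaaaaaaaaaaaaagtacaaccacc
Aldoa start 3: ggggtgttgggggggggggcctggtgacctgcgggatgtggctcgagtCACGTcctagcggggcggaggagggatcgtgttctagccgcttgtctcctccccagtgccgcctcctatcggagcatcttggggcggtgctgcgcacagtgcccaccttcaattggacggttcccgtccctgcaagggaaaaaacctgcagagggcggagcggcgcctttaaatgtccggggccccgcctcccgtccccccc

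*Tpi1*, which interconverts the triose phosphates, had ratios of 0.29, 0.55 and 0.21 and no overlap between the groups, with a mean of 0.35 (SE 0.11) and an unadjusted p of 0.028. *Gpd1* draws off a triose phosphate toward glycerol phosphate and had ratios of 0.13, 1.19 and -0.47, with both signs.

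*Gapdh* oxidizes glyceraldehyde 3-phosphate and is often used as a reference gene. Its level was 15.99, 15.57 and 16.03 in *mdx* and 16.41, 16.73 and 16.40 in N1ICD-*mdx* muscles. The groups did not overlap, and *mdx* replicate 2 was the lowest. The ratios of 0.42, 1.16 and 0.37 had a mean of 0.65 (SE 0.19, 95% interval 0.13 to 1.17), or 1.57-fold, with an unadjusted p of 0.0252, and 0.39 without replicate 2. The window before its start, on the minus strand at chr6:125165774-125166023, is shown because the gene was called and its window holds 1 match of the RBPJ core.
Gapdh: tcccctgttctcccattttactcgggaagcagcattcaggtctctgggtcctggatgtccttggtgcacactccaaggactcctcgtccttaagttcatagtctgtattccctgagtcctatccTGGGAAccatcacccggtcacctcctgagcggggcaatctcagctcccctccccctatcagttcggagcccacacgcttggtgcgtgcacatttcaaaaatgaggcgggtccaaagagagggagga

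*Pgk1*, the first ATP-yielding enzyme of the chain, was at 14.25, 14.20 and 14.54 in *mdx* and at 14.76, 14.73 and 14.74 in N1ICD-*mdx* muscles. The N1ICD-*mdx* muscles lay close together and above all *mdx* muscles. The ratios were 0.51, 0.53 and 0.20, with a mean of 0.41 (SE 0.11) and an unadjusted p of 0.0171, and this was 1 of the few genes for which array 2 did not stand out from array 1. Phosphoglycerate mutase has a muscle isoform, *Pgam2*, at 15.90, 15.80 and 15.78 and 15.80, 15.99 and 15.90 in the 2 groups, which overlapped, with a ratio of 0.07 (SE 0.10). The general isoform *Pgam1* was at 11.08, 12.39 and 10.58 in *mdx* and 11.14, 10.50 and 10.71 in N1ICD-*mdx* muscles. Its ratio of -0.56 (SE 0.46) came from array 2 alone, with 0.07, -1.89 and 0.14 on the 3 arrays and the highest level in *mdx* replicate 2.

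Enolase makes phosphoenolpyruvate, and *Eno3* is its muscle isoform. *Eno3* stood at 15.76, 15.41 and 16.04 in *mdx* and at 16.18, 16.38 and 16.11 in N1ICD-*mdx* muscles, with no overlap and a gap of less than 0.1 between *mdx* replicate 3 and its partner. Its ratio was 0.49 (SE 0.20), with an unadjusted p of 0.0649. *Eno1*, the general isoform, was at 12.46, 12.68 and 12.34 and 12.71, 11.83 and 12.44, and *Eno2*, the neuronal isoform, at 6.87, 7.11 and 6.97 and 7.05, 6.84 and 6.98. Both overlapped, with ratios of -0.17 (SE 0.25) and -0.02 (SE 0.12), and *Eno1* was highest in N1ICD-*mdx* replicate 1 and *Eno2* in *mdx* replicate 2. *Pkm*, pyruvate kinase, was above 0 on all 3 arrays, at 0.28, 0.35 and 0.09, with a mean of 0.24 (SE 0.10).

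Lactate dehydrogenase is built from A subunits, which prevail in fast muscle, and B subunits, which prevail in heart. *Ldha* was at 15.59, 15.54 and 15.85 in *mdx* muscles and at 16.20, 16.46 and 15.99 in N1ICD-*mdx* muscles. The groups did not overlap, and the smallest ratio was that of replicate 3. The ratios of 0.61, 0.93 and 0.14 gave a mean of 0.56 (SE 0.18), or 1.47-fold, with an unadjusted p of 0.0304. *Ldhb* was at 11.43, 10.96 and 10.81 and 11.07, 10.37 and 11.76, with ratios of -0.35, -0.59 and 0.95 that cancelled to 0.00 (SE 0.34). The first of the windows before a start of *Ldha*, on the plus strand at chr7:46845554-46845803, held 5 matches of the hypoxia core, the most of any gene of the list, and is shown for that. A palindrome CACGTG in it counts as 2 matches, 1 on each strand.
Ldha: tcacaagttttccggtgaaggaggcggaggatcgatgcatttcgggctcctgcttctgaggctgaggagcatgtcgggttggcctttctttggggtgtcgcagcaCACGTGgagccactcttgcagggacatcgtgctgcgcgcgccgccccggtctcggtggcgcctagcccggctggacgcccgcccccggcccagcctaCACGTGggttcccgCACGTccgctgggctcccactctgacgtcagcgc

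**Figure D4:**
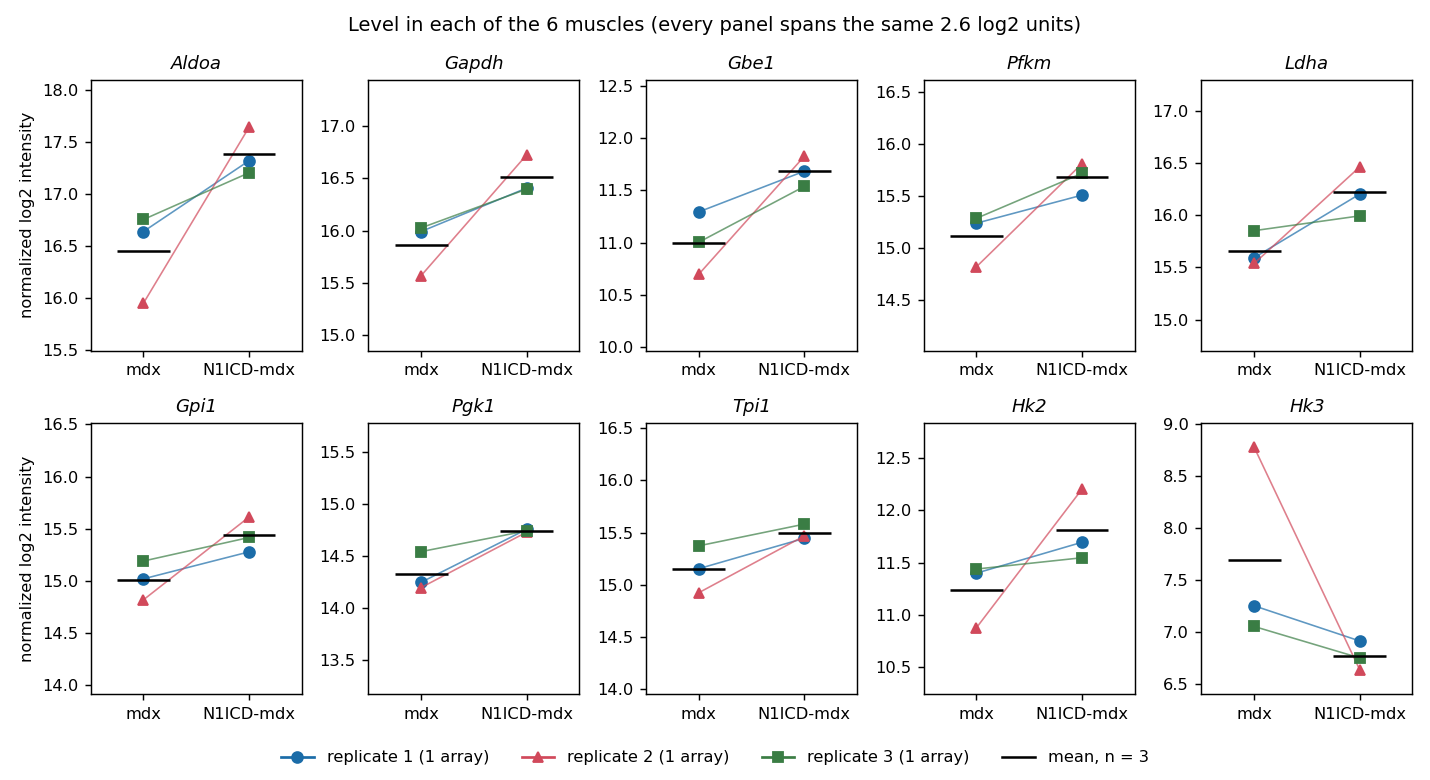
Points are the normalized log2 intensity (y axis) of 10 genes in the 3 mdx and 3 N1ICD-mdx muscles (x axis), lines join the 2 muscles of 1 array, and black bars are group means (n = 3). All 3 lines run upward for the first 9 genes and downward for Hk3, and the line of replicate 2 starts lowest in each of the first 9 and highest for Hk3.

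On the way into glycogen, *Gbe1*, the branching enzyme, was the called gene outside the bright class. Its level was 11.29, 10.70 and 11.004 in *mdx* and 11.68, 11.83 and 11.54 in N1ICD-*mdx* muscles. All N1ICD-*mdx* muscles were above all *mdx* muscles, and each ratio, at 0.39, 1.13 and 0.54, was clear of 0. The mean was 0.69 (SE 0.18, 95% interval 0.21 to 1.16), or 1.61-fold, with an unadjusted p of 0.0152 and rank 50 among all genes, and 0.46 without replicate 2. The window before its start, on the plus strand at chr16:70313699-70313948, holds 1 match of the RBPJ core in reverse complement.
Gbe1: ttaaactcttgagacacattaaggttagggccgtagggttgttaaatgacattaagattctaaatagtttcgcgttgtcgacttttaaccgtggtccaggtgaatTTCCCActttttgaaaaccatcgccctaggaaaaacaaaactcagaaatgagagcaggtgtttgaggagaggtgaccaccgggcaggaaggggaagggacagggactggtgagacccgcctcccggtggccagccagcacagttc

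The other genes of glycogen synthesis had no unadjusted p under 0.05. *Ugp2*, which makes UDP-glucose, and *Gyg*, the glycogenin primer, had mean ratios of 0.32 (SE 0.18) and 0.31 (SE 0.19), each near 0 on array 3. *Gys1*, muscle glycogen synthase, had 0.03 (SE 0.15), and the phosphoglucomutases *Pgm1* and *Pgm2* had 0.21 (SE 0.19) and -0.18 (SE 0.15).

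Glycogen phosphorylase releases glucose 1-phosphate from the store. Its muscle isoform *Pygm* was at 14.68, 14.20 and 14.92 in *mdx* and at 14.72, 14.96 and 14.93 in N1ICD-*mdx* muscles, which overlapped, and its ratio was 0.27 (SE 0.18), nearly all of it from array 2. The brain isoform *Pygb* was at 7.27, 7.78 and 7.13 and 7.41, 7.21 and 7.26, with a ratio of -0.10 (SE 0.18). The liver isoform *Pygl* was at 8.62, 9.47 and 8.50 and 8.72, 8.09 and 8.23, and its ratio of -0.52 (SE 0.32) went with a high level in *mdx* replicate 2. Phosphorylase kinase switches phosphorylase on, and its subunits *Phka1*, *Phkb* and *Phkg1* had mean ratios of 0.01, 0.19 and -0.16, each positive on array 2 and negative on array 3. Stored glycogen is also handled by phosphatase targeting subunits, by laforin and in lysosomes. *Ppp1r3a*, *Ppp1r3c*, *Epm2a* (laforin), *Gaa* (acid glucosidase) and *Stbd1*, which binds glycogen, had mean ratios from 0.07 to 0.43. None of these 5 had the same sign on all 3 arrays or an unadjusted p under 0.05.

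Without replicate 2 the 2 remaining arrays gave another picture of the lower end. The 8 genes that were higher at an unadjusted p under 0.05 on 3 arrays were the same 8 genes on 2 arrays, against 8.32% of all genes and 49.8% of the bright genes. In addition 7 of the 43 genes were lower (16.3%), against 7.03% of all genes, where there had been 0 on 3 arrays. These were *Fbp2*, *Hk3*, *Pfkfb3*, *Pfkfb4*, *Phka1*, *Phkg1* and *Ppp1r3a*, with ratios from -0.65 to -0.32. *Fbp2* alone of the 43 then passed the fold threshold as well, at -0.65, against 0.547% of all genes called lower and 0.89% called higher. *Phka1* and *Phkg1*, subunits of phosphorylase kinase, stood at -0.51 and -0.52, and *Ppp1r3a*, the targeting subunit of striated muscle, at -0.43. The smallest adjusted p of the 43 genes was 0.105 in this fit. The 2 arrays are part of the 3, so the fits are not independent. With 2 arrays the SE leaned on variances moderated over all genes. It was 0.086 for *Fbp2*, *Hk3*, *Gapdh* and *Gpi1* alike, and 0.169 for *Phka1*.

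For 7 enzymes the muscle isoform was set against the other isoforms measured, by subtracting the mean of their ratios within each array. The difference was above 0 on the mean of 3 arrays for all 7 enzymes and on every array for 4 of them, hexokinase, phosphofructokinase, aldolase and enolase. For hexokinase and enolase this rested on the mean over the other isoforms. On array 1 *Hk1* alone, at 0.56, exceeded *Hk2*, at 0.30. On array 3 *Eno1* alone, at 0.09, exceeded *Eno3*, at 0.07. For aldolase it was 0.62, 1.78 and 0.61 on arrays 1, 2 and 3. For phosphofructokinase it was 0.29, 1.41 and 0.43. The largest of all was that of hexokinase on array 2, at 2.56, where arrays 1 and 3 gave 0.19 and 0.22. Phosphoglycerate mutase was below 0 on arrays 1 and 3 and at 2.08 on array 2, and lactate dehydrogenase was at 0.96, 1.52 and -0.80. The median over the 7 enzymes was 0.63, with 0.20, 1.74 and 0.09 on the 3 arrays, and 0.11 without replicate 2. With 3 arrays an exact sign-flip test, two-sided, cannot go below a p of 0.25, so no enzyme could pass it, and over the 7 tests the smallest adjusted p was 0.438.

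The isoform classes also differed in brightness and in where *mdx* replicate 2 stood. Mean log2 intensities were 11.52 to 16.93 for the 7 muscle isoforms and 6.97 to 12.41 for the 11 others, so class and brightness cannot be told apart. Ratios of dim isoforms also moved with the background offset. With 10 in place of 50, *Hk3* stood at -1.29, *Pfkp* at -0.30 and *Aldoc* at -0.08. *mdx* replicate 2 had the lowest of the 6 levels in 6 of 7 muscle isoforms and the highest in 7 of 11 others, and the macrophage markers were highest in the same muscle. On array 2 none of the 11 other isoforms had a ratio above 0, while 8 did on array 1 and 7 on array 3.

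**Figure D5:**
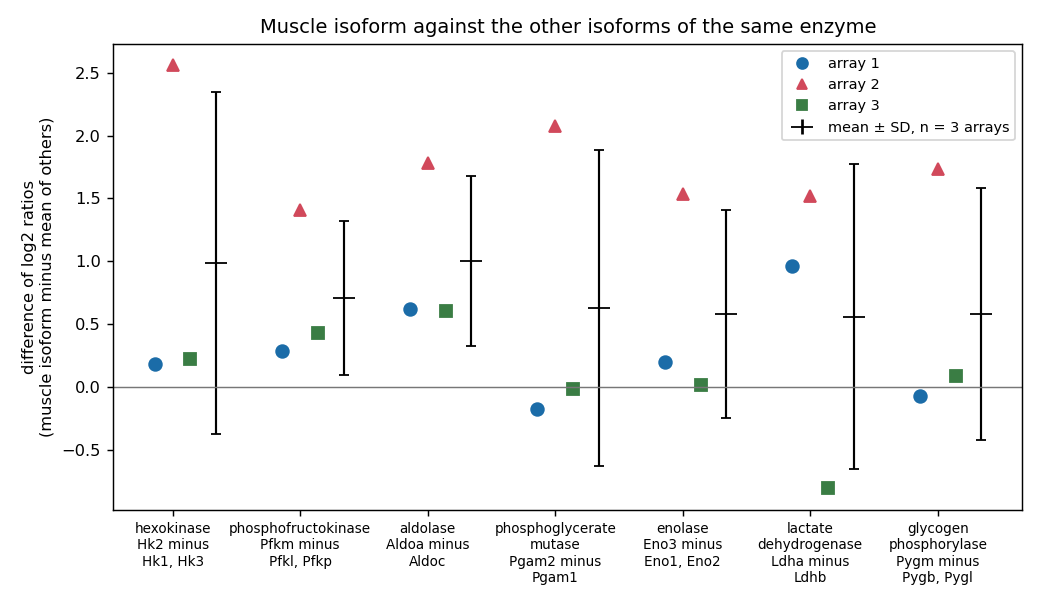
For each of 7 enzymes (x axis) the log2 ratio of the muscle isoform minus the mean of the other isoforms is plotted on each of the 3 arrays (y axis), with the mean and SD at the right (n = 3 arrays). Array 2 lies above the other arrays for every enzyme, and hexokinase, phosphofructokinase, aldolase and enolase lie above 0 on all 3.

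Several probes of 1 gene were kept for 12 of the 43 genes, and their ratios did not always match. *Gapdh* had 7 probes. Those at a mean log2 intensity of 16.0 to 16.2 had ratios of 0.56 to 0.78, the pair at 15.3 and 15.2 had 0.25 and 0.02, and the dimmest, at 14.02, had -0.13. *Ldha* had 0.56 at an intensity of 15.9, 0.13 at 14.5 and -0.46 at 12.2, and the dimmest probe was below 0 on all 3 arrays. In a limma fit over all kept probes, that dimmest *Ldha* probe was lower at an unadjusted p of 0.0122. The dimmer *Pfkfb3* probe, at an intensity of 6.3, was lower in that fit at -0.28, with 0.0485. The *Gapdh* probes at 16.0 to 16.2 were higher in it at an unadjusted p under 0.05. *Tpi1* had 0.35 at 15.3 and -0.04 at 13.9. The brightest probe had the highest ratio of its gene in 8 of the 12 genes, and in 9 of 12 with processed signals or with median centring. Genes such as *Gapdh* have many near-identical copies in the genome, and a probe may collect signal from them, which was not tested. *Aldoa* and *Gbe1* were each measured by 1 kept probe.

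Other genes of the pathways were taken from lists. Of 18 further glycolysis genes 11 were measured, and 1 had an unadjusted p under 0.05 and was called, against 0.956% of all genes called. The next smallest p belonged to *Tigar*, a fructose bisphosphatase, at 0.27 (SE 0.20). Of 20 further glycogen genes 17 were measured, 4 were higher and 1 lower at an unadjusted p under 0.05, against 4.05% and 2.44% of all genes, and 1 was called. Among the higher ones were *Pgm5* at 0.71 (SE 0.17), which was called, *Ppp1cb*, a phosphatase catalytic subunit, at 0.36 (SE 0.12), and *Ppp1r3b*, a glycogen targeting subunit, at 0.28 (SE 0.10). *Pgm5* is related to phosphoglucomutases and sits at adhesion sites of the fiber. The lower one was *G6pc3*, a glucose 6-phosphatase, at -0.36 (SE 0.12), and *Phka2*, the liver subunit of phosphorylase kinase, came next at -0.40 (SE 0.17).

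Of 13 regulators of glycolytic genes, all measured, 2 had an unadjusted p under 0.05, both higher, against 4.05% of all genes. *Six4* and *Eya1* are factors of the fast glycolytic program of mouse fibers. These were the ones past it, and *Eya1* and *Six4* had ratios of 0.41 (SE 0.10) and 0.40 (SE 0.10), above 0 on all 3 arrays. *Mlxipl*, a glucose-sensing factor, was at 0.51 (SE 0.19), with an unadjusted p of 0.054. *Hif1a*, the hypoxia factor, had -0.25 (SE 0.17). All of these had adjusted p of 0.704 or above.

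Windows of 250 bases before the start, from the RefSeq table, matched 42 of the 43 genes, all but *Gpd1*. On either strand, TGGGAA was found in 12 of 42 genes (28.6%), where 24.1% of 27025 genes hold it. ACGTG was in 20 of 42 (47.6%), where 18.5% of all genes hold it, and the E-box CAGCTG, a site of the muscle factors, was in 12 of 42 (28.6%) against 14.7%. The MEF3 motif TCAGGTTTC was in 0 of 42, against 0.5% of all genes. A gene can have several windows, 60 for these 42 genes and 32851 in all. Per window, TGGGAA was in 15 of the 60 against 21.6% of all, and the shares were 40.0% against 16.6% for ACGTG and 20.0% against 13.0% for CAGCTG. A match says only that the letters stand in the window.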

How the data were processed

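RNA of 6 TA muscles was hybridized in pairs to 3 two-color Agilent SurePrint G3 mouse arrays. The authors extracted the images with Agilent Feature Extraction 11.5 (11.5.1.1 per the file headers). The deposited values are intensity values, the median signal and local background of each spot and channel without normalization, beside processed signals. The deposited flags for each spot are neither a count nor an intensity. Median signals were corrected with normexp (offset 50) and loess in limma 3.58.1 (R 4.3.3). Loess centres the ratios along intensity, and few probes define its curve at the bright end. Probes that 1 channel or both read well above background on every array were kept, named through RefSeq (28026 of 55681 probes), and the brightest stood for its gene. The limma fit took the 3 ratios, with p-values adjusted by Benjamini and Hochberg over 13705 genes. Levels were scaled across arrays (Aquantile). No spot was saturated. The number of arrays limits the precision. P-values of the limma fit measure the spread of the 3 ratios, each from a pair of animals, with variances moderated over all genes. A dye effect common to all arrays enters the mean ratio and not this spread. The genes given with all 6 levels were those called, those with a ratio of at least 0.4 in size and 1 direction on all arrays, and the isoforms of the 7 enzymes. Members, lists and rules were chosen with earlier results of these data known. Some genes of the further lists are counted but not reported here by name. Only the ratio fit was tested on simulated data, with independent noise at the measured spread of each gene. That simulation held no dye effect, brightness lean or outlying replicate, and did not cover normalization or the choice of probes. Alternatives covered signals, background, offset, centring, filters, probes, variances, weights, replicates, block and the methods' t-test. Figures were drawn with matplotlib in Python.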

Additional observations from a re-analysis of the deposited data

How the results depend on the processing

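The count of genes called was 131 with 65 higher and 66 lower. It was 965 (899 higher, 66 lower) with processed signals, 222 with an offset of 10, 421 (30 higher, 391 lower) with median centring, 57 (all higher) with trend and robust variances, 206 with array weights and 67 with the methods' t-test, of which 0 had an adjusted p under 0.05. Leaving out 1 replicate gave 185 to 207 genes (1.35% to 1.51% of all genes) and 1 to 6 of the 43 genes. Of the 43 genes, 3 were called, against 1 with median centring (*Aldoa*), 1 with array weights (*Phka1*, at -0.62 where it had been 0.01) and 1 without replicate 2 (*Fbp2*, lower). Of all genes 3.07%, 1.5% and 1.44% were called in these settings, in that order. The called genes were *Gbe1* and *Pfkm* without replicate 1, and *Aldoa*, *Eno3*, *Gapdh*, *Gbe1*, *Ldha* and *Stbd1* without replicate 3. *Aldoa* ranged from 0.56 to 1.18 over 14 alternatives and was called in 10, *Gbe1* from 0.46 to 0.87 and in 11, and *Gapdh* from 0.39 to 0.79 and in 6. The median of the 43 genes ranged from 0.03 (median centring) to 0.33 (without replicate 3). Relative to all genes, it was 0.19, and 0.06 with array weights, 0.08 with processed signals and 0.08 with the mean over probes. Also relative to all genes, it was 0.21 with median centring. It was 0.27, 0.10 and 0.33 in the same terms without replicate 1, 2 and 3. The muscle isoforms' median difference of 0.63 was 0.13 with array weights and 0.11 without replicate 2. The cause of these shifts was not tested.

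The replicate number is the shared array, so every ratio is within a block. Muscles of 1 array deviated from their group means with correlations of -0.02, -0.29 and 0.33, of which 1 was over 0.1. With no replicate block, on 6 channel values, 124 genes (0.905%) and the same 3 of the 43 genes were called, and no other call among the 43 changed. In that limma fit 10 rather than 8 of the 43 had an unadjusted p under 0.05, all higher. Of all genes 3.79% were higher and 2.61% lower at that threshold. Then 1 gene of all had an adjusted p under 0.05. The median spot signal was 49 to 53 in Cy3 over a local background of 42 to 47, and 23 to 27 in Cy5 over 17, which limits the dim genes.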
